A study of Homo sapiens with 6 samples.

Results

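The SOX genes encode transcription factors that share an HMG box, a DNA-binding domain that sits in the minor groove and bends the helix, and 10 of them were followed here: SOX2, SOX4, SOX5, SOX6, SOX8, SOX9, SOX11, SOX12, SOX13 and SOX21. They were taken by name from a table of read counts with 39396 gene rows, in which all 10 had a row. The RNA-seq series compared 3 libraries labelled olaparib, an inhibitor of PARP enzymes, with 3 labelled DMSO, the solvent control. All 6 carry the labels of the colorectal carcinoma line RKO and a WT genotype, and cells went into plates 24 h before treatment. The study's title joins the drug to the acetyltransferase KAT2B and the repair gene RAD51C. The sources used here give neither a dose nor a duration. Nor do they say where the 3 replicates of a group came from. The p-values rest on the spread among these libraries alone, and that spread may be technical.

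SOX proteins are sorted into lettered groups by their HMG box, and members of a group often share partners and act in place of each other. They seldom act alone: a partner protein at a neighbouring site decides which genes a SOX factor switches on. In the intestine SOX9 marks the crypt base and Paneth cells, SOX2 is better known from pluripotent cells, neural progenitors and the foregut, and SOX4 is active in many carcinomas.

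Totals ran from 28715138 to 42423785 counts per library. By edgeR's quasi-likelihood test, 75.7% of 17078 tested genes were called at an adjusted p below 0.05, 35.4% higher and 40.3% lower in olaparib, so a call on a SOX gene stands against a background in which most genes were called. The label of the cells was checked against marker lists chosen with earlier results of these data known. Of 13 markers of colorectal epithelium, 4 reached 1 CPM (counts scaled to the TMM-adjusted library size) in each group. CDX1 had no count in any library, CDX2 and GPA33 none in olaparib and KRT19 none in DMSO, and the summed level was 817 to 1098 CPM in olaparib and 274.5 to 338 CPM in DMSO. All 6 markers of HEK293, a human embryonic kidney line, reached 1 CPM in DMSO, with a summed level of 384 to 637 CPM. None of the 6 did so in olaparib, where the sum was 0 to 0.106 CPM and NEFL, LIN28B, KIF1A and PAX2 had no count. A difference in the source of the cells cannot be told apart from treatment, and every difference below is between libraries as labelled. In bulk RNA, fewer cells of a type and less RNA per cell cannot be told apart either.

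Most SOX genes had lower counts under the olaparib label. Of the 10, SOX11 held too few counts to be tested. Of the 9 that passed the expression filter, 7 were lower, SOX13 was higher and SOX4 was not called. All 7 were at least 2-fold lower, as were 25.0% of all tested genes. The median log2 fold change over those 9 was -2.92, beside -0.09 over all tested genes. The members were chosen with earlier results of these data known, so their contrast with all tested genes is descriptive and not independent support. All 3 olaparib libraries lay below all 3 DMSO libraries for the same 7 genes, and above them for SOX13. The groups overlapped for SOX4. Over all tested genes, 79.4% did not overlap and in 42.0% the olaparib libraries were the lower ones. SOX2, SOX5, SOX8 and SOX21 had no count in any olaparib library, which was so for 3.40% of tested genes. These genes passed the expression filter through their DMSO counts alone. None of the 9 lacked counts in all DMSO libraries, which held for 0.509% of tested genes.

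**Figure D1:**
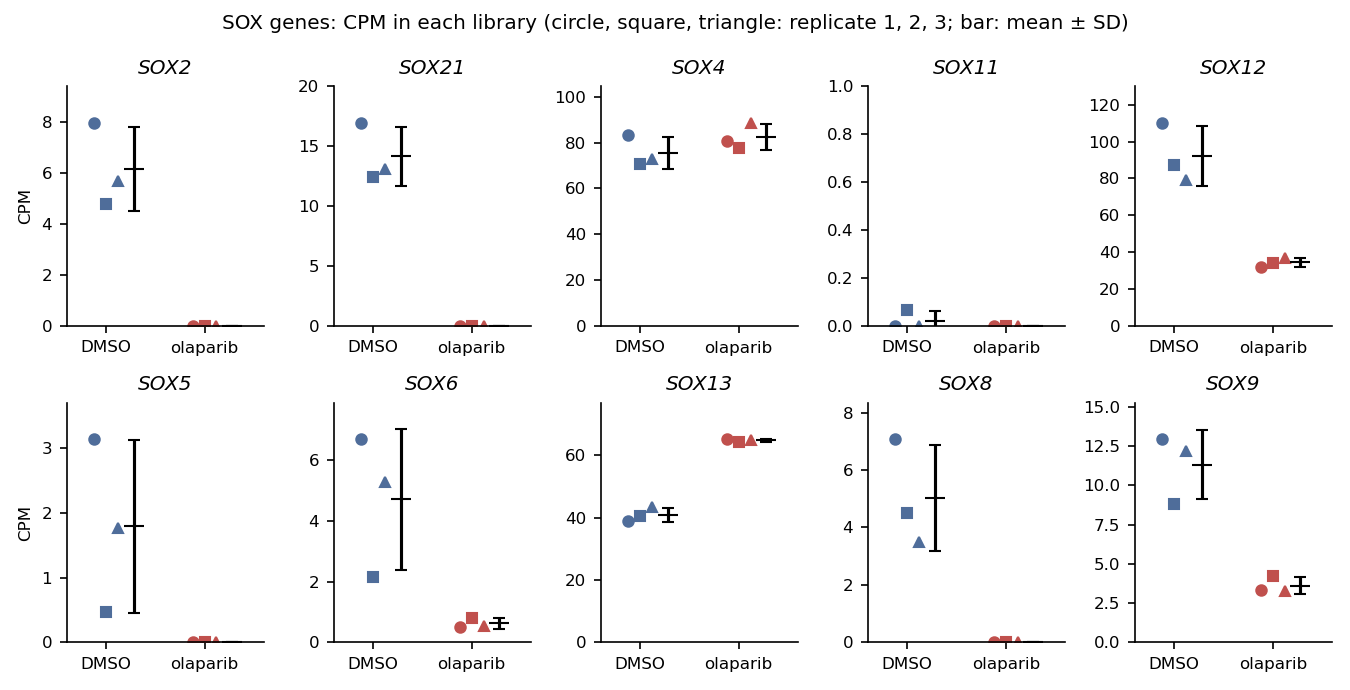
Level of each SOX gene in CPM (y axis, linear, from 0) in the 3 DMSO and 3 olaparib libraries (x axis), with replicates 1, 2 and 3 as circle, square and triangle and the mean ± SD beside them. SOX2, SOX21, SOX5 and SOX8 sit at 0 in all olaparib libraries, SOX4 overlaps between the groups, SOX13 is higher in olaparib, and the SOX11 panel holds a single library above 0.

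SOX2 and SOX21 belong to group B, in which SOX2 activates genes of stem cells and neural progenitors and SOX21 mostly represses. SOX2 stood at 7.98, 4.79 and 5.70 CPM in DMSO replicates 1, 2 and 3, and at 0 in every olaparib library. It was at least 184-fold lower in olaparib, taking 3 counts over the 3 olaparib libraries (0.0343 CPM) as the limit that a count of 0 allows (edgeR adjusted p = 2.22e-07). Each bound given here treats every count as an independent event, and would be smaller if 1 event could give 2 counts. SOX21 stood at 17.0, 12.4 and 13.1 CPM in DMSO, the highest of the SOX genes that were absent from olaparib. It too was at 0 in all olaparib libraries, at least 418-fold lower (edgeR adjusted p = 1.58e-08). DMSO replicate 1 was the highest of its group for both genes and replicate 2 the lowest.

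The starts of SOX2 and SOX21 were set beside those of SOX12, which was lower in olaparib but still abundant, and SOX13, the single member that was higher. The 250 bases before each start are given from RefSeq (GRCh38.p14), 5′ to 3′ on the gene's strand, with every CpG in capitals, since CpG-rich starts are where DNA methylation can act. The windows are chr3:181711675-181711924 (plus strand) for SOX2, chr13:94712546-94712795 (minus) for SOX21, chr20:325302-325551 (plus) for SOX12 and chr1:204072865-204073114 (plus) for SOX13.
SOX2: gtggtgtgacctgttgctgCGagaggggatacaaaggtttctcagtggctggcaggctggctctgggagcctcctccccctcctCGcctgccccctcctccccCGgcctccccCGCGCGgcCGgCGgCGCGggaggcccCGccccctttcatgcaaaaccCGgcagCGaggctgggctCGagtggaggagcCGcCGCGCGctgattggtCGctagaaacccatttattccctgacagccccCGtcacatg
SOX21: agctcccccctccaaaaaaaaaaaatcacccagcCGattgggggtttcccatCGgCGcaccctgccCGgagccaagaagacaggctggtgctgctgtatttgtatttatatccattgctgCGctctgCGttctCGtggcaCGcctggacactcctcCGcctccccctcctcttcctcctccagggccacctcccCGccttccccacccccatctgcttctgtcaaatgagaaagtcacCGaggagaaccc
SOX12: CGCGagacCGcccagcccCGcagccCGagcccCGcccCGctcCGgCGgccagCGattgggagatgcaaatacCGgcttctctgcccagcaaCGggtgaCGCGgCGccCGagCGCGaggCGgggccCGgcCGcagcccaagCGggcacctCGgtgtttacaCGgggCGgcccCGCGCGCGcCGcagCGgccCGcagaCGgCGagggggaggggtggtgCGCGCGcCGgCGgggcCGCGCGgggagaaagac
SOX13: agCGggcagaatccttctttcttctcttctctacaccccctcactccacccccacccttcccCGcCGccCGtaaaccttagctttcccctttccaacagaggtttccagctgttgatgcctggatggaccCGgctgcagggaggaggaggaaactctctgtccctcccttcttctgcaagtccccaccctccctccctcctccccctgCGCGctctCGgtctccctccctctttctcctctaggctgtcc
They hold 20, 11, 42 and 8 CpGs, against a median of 11 over 35116 such windows. SOX12 has more than 98.6% of windows, while SOX2 lies at 67.6%, SOX21 at 49.7% and SOX13 at 43.7%. SOX5, not shown, which also had no count in olaparib, has 27 CpGs (82.3%). Methylation was not measured. The SOX recognition words ACAATG and ACAAAG, read on both strands, occur in 9.3% and 13.7% of all windows. SOX2 held 1 ACAAAG and no ACAATG, and the other 3 held neither word. Among the windows not shown, SOX5 held 2 ACAATG, and 1 of the 5 SOX6 windows held 1 ACAATG and 2 ACAAAG and another 1 ACAATG. Of the 10 genes, 7 had a window in the table.

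SOX21 starts 171 bases from SOX21-AS1, a noncoding RNA read in the opposite direction, and their upstream windows share 170 bases. SOX21-AS1 stood at 13.7, 10.2 and 10.9 CPM in DMSO replicates 1, 2 and 3 and at 0 in all olaparib libraries. It was at least 342-fold lower (edgeR adjusted p = 2.21e-08), so both transcripts of this shared start were seen in DMSO and neither in olaparib. Their annotated exons do not overlap, so reads from one could not be counted for the other by overlap alone. SOX2 lies inside an intron of SOX2-OT, a long noncoding RNA on the same strand, and shares no exon base with it. SOX2-OT held 2 counts in the olaparib libraries and 37 in DMSO and was too low to be tested. The ratio was 14.0, with a 95% interval from counting alone of 3.60 to 119.5.

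SOX4, SOX11 and SOX12 form group C, activators with a strong C-terminal transactivation domain that act in neural and mesenchymal progenitors. SOX4 stood at 83.3, 70.6 and 72.7 CPM in DMSO and at 80.6, 77.8 and 88.8 CPM in olaparib. The libraries of the 2 groups were interleaved, and the log2 fold change was 0.12 ± 0.10 (SE, edgeR adjusted p = 0.290). SOX12 stood at 110.3, 87.1 and 79.0 CPM in DMSO and at 32.2, 34.3 and 37.0 CPM in olaparib, where every library was below the lowest DMSO library. It was 2.67-fold lower (log2 -1.42 ± 0.13, SE, edgeR adjusted p = 9.15e-07). SOX11 held 2 counts in all, both in DMSO replicate 2, so it was not detectable at this depth in the other 5 libraries and no fold is given. The 3 genes of 1 group thus showed 3 readings, a level that was not called as different, a fall and a near absence from all libraries. Each of them is a single-exon gene.

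SOX5, SOX6 and SOX13 make up group D, which lack a transactivation domain of their own and pair through a coiled coil. SOX5 and SOX6 join SOX9 on cartilage genes, and SOX13 is known from the gamma-delta T cell lineage. SOX5 stood at 3.13, 0.472 and 1.76 CPM in DMSO replicates 1, 2 and 3 and at 0 in all olaparib libraries, at least 56.3-fold lower (edgeR adjusted p = 0.000146). Its DMSO libraries were spread 6.64-fold from lowest to highest, the widest of the tested members, and without DMSO replicate 1 the bound was 36.3-fold. SOX6 stood at 6.695, 2.16 and 5.29 CPM in DMSO and at 0.523, 0.817 and 0.531 CPM in olaparib. It was 7.54-fold lower (log2 -2.92 ± 0.43, SE, edgeR adjusted p = 4.92e-05), again with DMSO replicate 2 far below the other two. Exons of SOX6 share 219 bases with C11orf58 on the opposite strand, which held 11276 counts in olaparib against 55 for SOX6. Without strand, reads in those bases cannot be assigned to either gene.

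SOX13 went the other way from SOX5 and SOX6. It stood at 38.8, 40.7 and 43.3 CPM in DMSO and at 65.2, 64.25 and 65.1 CPM in olaparib, with each olaparib library above each DMSO library. SOX13 was 1.58-fold higher (log2 0.66 ± 0.10, SE, edgeR adjusted p = 4.62e-05). Its DMSO libraries differed least of the 9 tested members, with a coefficient of variation of 5.51% against 74.4% for SOX5.

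SOX8 and SOX9 belong to group E, with SOX10. These factors act in the neural crest, glia, cartilage and testis, and SOX9 also in the intestinal crypt. SOX8 stood at 7.075, 4.52 and 3.48 CPM in DMSO replicates 1, 2 and 3 and had no count in olaparib, at least 147-fold lower (edgeR adjusted p = 7.81e-07). SOX9 stood at 12.9, 8.83 and 12.2 CPM in DMSO and at 3.35, 4.25 and 3.255 CPM in olaparib. It was present in all 6 libraries and 3.13-fold lower in olaparib (log2 -1.65 ± 0.21, SE, edgeR adjusted p = 1.63e-05). SOX9-AS1, a noncoding RNA on the other strand, held 27 counts in DMSO, of which replicate 2 had none, and 0 in olaparib.

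**Figure D2:**
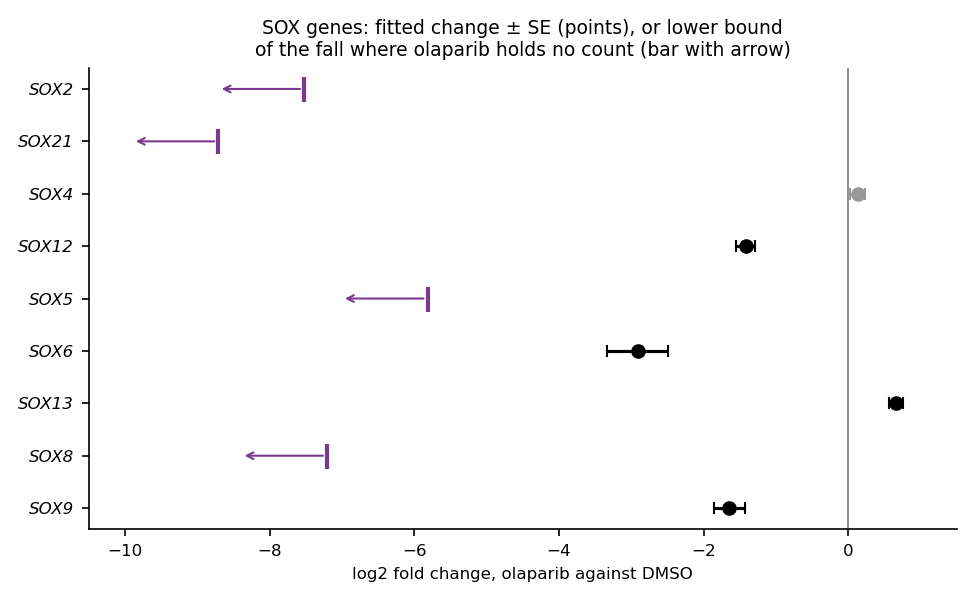
Log2 fold change of olaparib against DMSO (x axis) for the 9 tested SOX genes (y axis): points with SE for genes with counts in both groups, black where called and grey for SOX4, and bars with arrows at the lower bound of the fall for genes with no olaparib count. The bounds for SOX2, SOX21, SOX5 and SOX8 lie at -7.52, -8.71, -5.82 and -7.20, all beyond the fitted -2.92 of SOX6, while SOX13 is the single called gene to the right of 0.

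Among themselves, the members kept part of their order between the groups. Levels were compared per length, as CPM per kb of annotated exon (all isoforms of GENCODE 29 merged, which lowers genes with many isoforms such as SOX5 and SOX6). In DMSO the mean ± SD (n = 3) was 19.9 ± 3.51 for SOX12, 12.9 ± 1.17 for SOX4, 5.52 ± 0.304 for SOX13 and 5.09 ± 0.890 for SOX21. SOX9 followed with 2.88 ± 0.556, SOX2 with 2.45 ± 0.654, SOX8 with 1.13 ± 0.417, SOX6 with 0.240 ± 0.118 and SOX5 with 0.171 ± 0.128. The ranges of SOX13 and SOX21, of SOX9 and SOX2 and of SOX6 and SOX5 overlapped, while those of the other neighbours did not. Within each of the 3 DMSO libraries SOX9 was above SOX2 and SOX6 above SOX5, whereas SOX13 was above SOX21 in 2 of 3.

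In olaparib the order began with SOX4, at 14.1 ± 0.973 CPM per kb, then SOX13 at 8.74 ± 0.0713, SOX12 at 7.45 ± 0.524, SOX9 at 0.919 ± 0.139 and SOX6 at 0.0318 ± 0.00852, with no overlap between neighbours. SOX12 thus moved from first to the third place. The summed level of the 10 genes was 46.2 to 58.1 CPM per kb in DMSO and 30.4 to 32.8 in olaparib. SOX12 made up 39.5% of that sum in DMSO and 23.9% in olaparib (means over 3 libraries), SOX4 25.8% and 45.1%, and SOX13 11.1% and 28.0%. SOX21 and SOX2 made up 10.1% and 4.82% in DMSO.

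**Figure D3:**
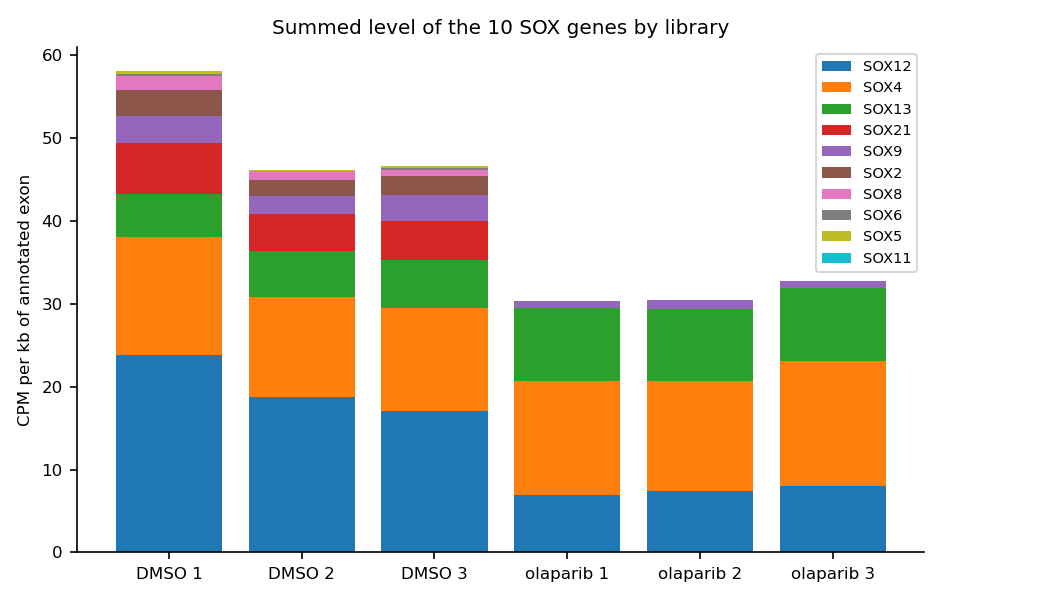
Stacked bars of CPM per kb of annotated exon (y axis, from 0) for the 10 SOX genes in each library (x axis). The 3 DMSO bars reach 46.2 to 58.1, and the 3 olaparib bars reach 30.4 to 32.8 and consist almost wholly of SOX12, SOX4, SOX13 and SOX9.

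The DMSO libraries were not alike for these genes. Of the 9 tested members, 8 were highest in DMSO replicate 1, with SOX13 the exception, and 6 were lowest in DMSO replicate 2. No member changed direction or call without any 1 library. The bounds for genes at 0 in olaparib fell 1.54-fold without olaparib replicate 2, to 119 for SOX2, 272 for SOX21, 95.8 for SOX8 and 36.6 for SOX5, since the limit of 3 counts then stood over 2 libraries.

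The members were then set beside the genes around them. SOX12 lies on chromosome 20 from 325595 to 330224 (hg38, plus strand). Its nearest tested protein-coding neighbours fell further than it did: ZCCHC3 was 6.62-fold and NRSN2 5.71-fold lower. Within 5 Mb, 45 of 50 tested protein-coding genes were lower, with a median log2 fold change of -1.67 beside -1.42 for SOX12. SOX21, on chromosome 13 from 94709622 to 94712399 (minus strand), had neighbours that were higher, GPR180 by 1.32-fold and ABCC4 by 1.995-fold, and a median of 0.61 over 20 genes. SOX2, on chromosome 3 from 181711924 to 181714436 (plus strand), lay between DNAJC19, which was 2.15-fold lower, and ATP11B (1.21-fold higher, edgeR adjusted p = 0.0507), with a median of -0.27 over 56 genes. ATP11B was called without DMSO replicate 3 or olaparib replicate 1 (edgeR adjusted p = 0.0283 and 0.0317).

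SOX8, on chromosome 16 from 981808 to 986979 (plus strand), lay 0.2 kb from LMF1, a lipase maturation factor that was 1.34-fold higher. On its other side SSTR5, a somatostatin receptor, was 40.4-fold higher, with 6 DMSO counts (log2 6.12 in place of 5.33 without DMSO replicate 3). The LMF1 call was lost without olaparib replicate 1, DMSO replicate 1 or DMSO replicate 3 (edgeR adjusted p = 0.14, 0.0542 and 0.0695). SOX9, on chromosome 17 from 72121020 to 72126420 (plus strand), stands alone in a gene-poor stretch, with KCNJ2 at 1941 kb, 9.59-fold higher, and SLC39A11 at 519.5 kb, 1.97-fold lower. The medians within 5 Mb were -0.08 over 160 genes for SOX8 and -0.48 over 91 genes for SOX9. SOX5, on chromosome 12 from 23529500 to 24562544 (minus strand), had BCAT1, a branched-chain aminotransferase, on one side, 118-fold lower at 0.508 ± 0.239 CPM in olaparib against 60.0 ± 16.7 in DMSO. ETNK1 on its other side was not called (log2 0.18), but was called without DMSO replicate 1 (edgeR adjusted p = 0.0389). The median around SOX5 was 0.53 over 38 genes.

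SOX6, on chromosome 11 from 15966449 to 16739591 (minus strand), starts beside C11orf58, which was 1.46-fold lower, and the polarity gene INSC on its other side had no count in olaparib and was at least 16.6-fold lower. The median around SOX6 was -0.86 over 49 genes. SOX13, on chromosome 1 from 204073115 to 204127743 (plus strand), was higher between 2 genes that were lower, SNRPE by 1.83-fold and ETNK2, 3.3 kb away, by 10.7-fold. Within 5 Mb of SOX13, however, 39 of 77 genes were higher and 24 lower, with a median of 0.31. SOX4, on chromosome 6 from 21592768 to 21598619 (plus strand), had CDKAL1 (log2 0.22) and MRS2 (log2 0.01) as neighbours, neither of them called, and 28 of 50 genes within 5 Mb were higher. SOX11, on chromosome 2 from 5692667 to 5701385 (plus strand), had COLEC11 and CMPK2 on its sides, both without a count in olaparib and at least 66.4-fold and 44.0-fold lower, and a median of -1.01 over 30 genes. No test compared a member with its region.

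**Figure D4:**
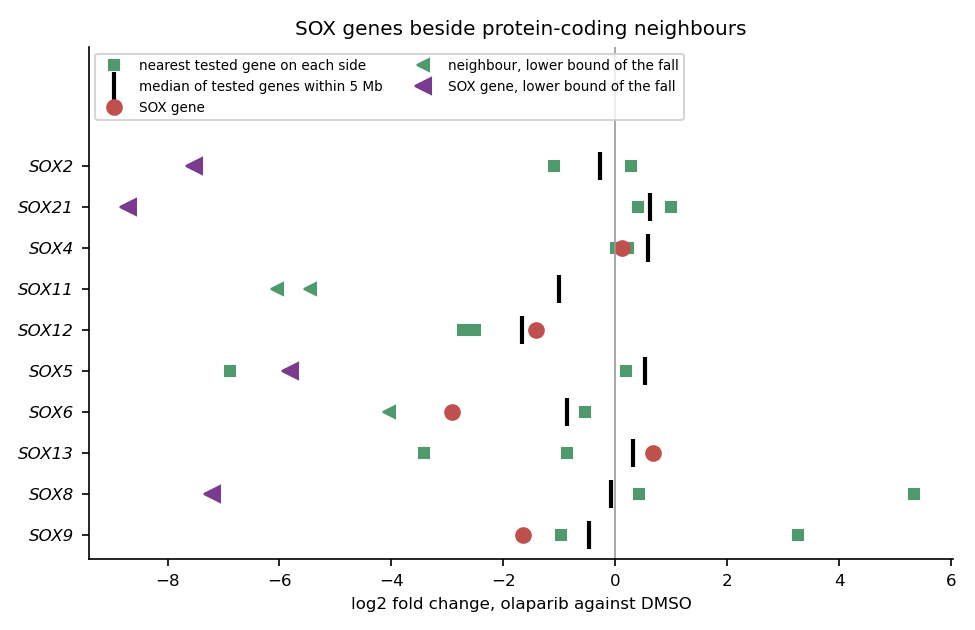
Log2 fold change of olaparib against DMSO (x axis) for each SOX gene (red circle, or purple triangle at the lower bound of the fall), its nearest tested protein-coding gene on either side (green square, or green triangle at the lower bound) and the median of tested protein-coding genes within 5 Mb (black bar). SOX12 lies close to its regional median of -1.67, whereas SOX21 and SOX8 lie far left of medians of 0.61 and -0.08, and SOX11 has no value of its own.

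The remaining SOX genes followed in both directions. Of 9 further family members, 6 were tested, 4 were lower, SOX17 was higher and SOX15 was not called. SOX17, a factor of endoderm and endothelium, stood at 7.88, 7.32 and 6.76 CPM in olaparib and at 0.427, 0.876 and 0.904 CPM in DMSO. It was 9.99-fold higher (log2 3.32 ± 0.30, SE, edgeR adjusted p = 6.71e-07), without overlap. Of 5 endothelial markers, 2 reached 1 CPM in olaparib and 0 in DMSO, with summed levels of 23.0 to 24.7 and 1.33 to 1.69 CPM. CDH5 made up most of that sum (20.5 ± 0.106 against 0.128 ± 0.182 CPM). CDH5 and PECAM1 were called higher, KDR was called lower (0.0472 ± 0.0817 against 0.676 ± 0.197 CPM), VWF was not called and TEK was not tested. Their part in the SOX17 difference was not tested.

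SOX3, a group B relative of SOX2, stood at 1.47, 1.045 and 0.362 CPM in DMSO and at 0 in olaparib, at least 27.4-fold lower (edgeR adjusted p = 0.000207). SOX30, a factor of male germ cells, stood at 0.641, 1.08 and 1.176 CPM in DMSO and at 0 in olaparib, at least 27.9-fold lower (edgeR adjusted p = 4.16e-05). SOX7, a relative of SOX17, was 3.24-fold lower, but shares 1268 exon bases with PINX1 on the same strand, which held 499 counts in olaparib and 1379 in DMSO. SOX18, also of the SOX17 group, was 1.86-fold lower with overlapping libraries (log2 -0.89 ± 0.34, SE, edgeR adjusted p = 0.0317). That call was lost without DMSO replicate 1 or 2 or olaparib replicate 1 or 2 (edgeR adjusted p = 0.118, 0.072, 0.0513 and 0.121) and with the replicate number as a block (edgeR adjusted p = 0.0531). SOX10, SOX1 and SOX14 were too low to test, with 15, 0 and 0 counts in olaparib and 61, 7 and 0 in DMSO. SOX10 shares 89 exon bases with POLR2F on the opposite strand, which held 2837 counts in olaparib and 12542 in DMSO. Without strand, reads in those bases cannot be assigned to either gene.

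Noncoding transcripts at SOX loci were rarely detected. Of 8 listed, 3 were tested: SOX21-AS1 and SOX1-OT were lower and CASC15, which lies beside SOX4, was higher. SOX1-OT stood at 1.31, 0.539 and 0.497 CPM in DMSO and at 0 in olaparib, at least 23.4-fold lower (edgeR adjusted p = 0.000184). Without DMSO replicate 1 the bound was 15.0-fold (edgeR adjusted p = 0.000573). CASC15 was 1.95-fold higher (edgeR adjusted p = 0.0427), at 2.02, 1.045 and 0.955 CPM in olaparib, and without olaparib replicate 1 its log2 fold change fell from 0.96 to 0.54 (edgeR adjusted p = 0.256). The call was also lost without each of the 3 DMSO libraries and with the replicate block (edgeR adjusted p = 0.083, 0.0716, 0.108 and 0.1).

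Partners of SOX proteins were called in both directions, as were all tested genes (35.4% higher and 40.3% lower). Of 12 partners and coregulators, 4 were higher, 5 lower and 3 not called, with a median log2 fold change of 0.03. POU3F2 and POU3F3 are neural POU factors that bind beside SOX proteins. POU3F3 stood at 35.2 ± 4.46 CPM in DMSO and had no count in olaparib (at least 1033-fold lower), and POU3F2 was 104-fold lower, at 0.231 ± 0.110 against 24.1 ± 8.12 CPM. PAX3, a partner in the neural crest, had no count in olaparib and was at least 543-fold lower. POU5F1, the pluripotency partner of SOX2, was 3.88-fold higher, at 6.92 ± 1.23 against 1.78 ± 0.0442 CPM, in libraries that had no SOX2 count; reads of its near-identical pseudogenes may be split or shared by the counting.

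The TCF and LEF factors carry an HMG box of the same kind and read out Wnt signals through beta-catenin. Of 5 genes, 4 were lower, as were 40.3% of all tested genes. TCF7L2 was not called, and the median over the 5 was -2.62. LEF1 was 21.2-fold lower (1.32 ± 0.210 against 28.0 ± 1.55 CPM), TCF7L1 9.21-fold and TCF7 6.13-fold. CTNNB1, which encodes beta-catenin, was 1.86-fold lower at 315 ± 53.2 against 584.5 ± 45.8 CPM. Of 10 genes that modify or move SOX proteins, 5 were higher, 4 lower and 1 not called, with a median of 0.17. UBE2S, a ubiquitin-conjugating enzyme, was 6.30-fold lower. The ubiquitin ligases WWP2 and HUWE1 were 2.09-fold and 1.70-fold higher, and the methyltransferase SETD7 1.65-fold.

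Genes known as targets of the members were listed by role. The counts of each such list stand beside 35.4% higher and 40.3% lower over all tested genes. Of 14 cartilage genes bound by SOX9 with SOX5 and SOX6, 8 were tested, 5 lower and 3 higher, with a median of -2.25. COL2A1, the type II collagen gene that SOX9 is best known for, was 259-fold lower, at 0.114 ± 0.0374 against 30.5 ± 10.8 CPM. ACAN, which encodes aggrecan, had no count in olaparib and was at least 18.9-fold lower. COMP was 27.7-fold lower, with 6 olaparib counts that were all in replicate 2, so that without it the fall was given only as a bound, at least 37.8-fold. The other genes called lower were MATN3 (12.75-fold) and COL27A1 (1.76-fold). COL9A2 was 3.20-fold, COL9A3 2.29-fold and COL11A2 1.64-fold higher.

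Of 12 crypt and lineage genes linked to SOX9 in the intestine, 7 were tested, 5 lower, 1 higher and 1 not called, with a median of -4.10. Without DMSO replicate 2, or without olaparib replicate 1, 2 were called higher. CDX2, the intestinal homeobox factor, stood at 24.5 ± 2.002 CPM in DMSO and had no count in olaparib (at least 713-fold lower). EPHB3 and AXIN2, both Wnt targets of the crypt, were 36.7-fold and 17.1-fold lower. MUC2, the goblet cell mucin, held 462 counts in olaparib and 3 in DMSO, these 3 all in replicate 1. Its ratio was 204, with a 95% interval from counting alone of 69.4 to 993. Without DMSO replicate 1 no DMSO count remained, and without DMSO replicate 3 the log2 fold change was 6.86 in place of 7.49.

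Of 10 stem cell and neural progenitor genes linked to SOX2, 6 were tested, 3 higher, 1 lower and 2 not called, with a median of 0.72. SALL4 was 12.8-fold higher (29.7 ± 2.65 against 2.33 ± 0.440 CPM), NOTCH1 3.01-fold and HES5 2.59-fold. UTF1, which SOX2 activates in embryonic stem cells, was at 2.34 ± 0.691 CPM in DMSO and had no count in olaparib (at least 69.2-fold lower). NANOG and FGF4, other targets in those cells, had no count in any library. Of 8 neuronal genes linked to SOX4 and SOX11, 5 were tested, 2 lower and 3 not called, with a median of -0.25. PROX1 had no count in olaparib (at least 151-fold lower) and MEX3A was 5.10-fold lower, while TUBB3 and TEAD2 gave log2 fold changes of -0.25 ± 0.22 and -0.24 ± 0.15 (SE).

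Of 8 genes of glia, neural crest and Sertoli cells linked to SOX8, SOX9 and SOX10, 6 were tested, 3 higher, 0 lower and 3 not called, with a median of 0.80. ERBB3 was 6.05-fold, MITF 2.05-fold and PTGDS 8.75-fold higher. MITF stood at 44.1 ± 5.11 against 21.5 ± 2.75 CPM. Glial markers differed in the same direction, with 1 of 4 at 1 CPM in each group and sums of 45.6 to 55.8 CPM in olaparib and 6.91 to 9.73 CPM in DMSO, while S100B had no count in olaparib. Neuronal markers gave sums of 7.71 to 10.4 CPM in olaparib and 28.9 to 45.8 CPM in DMSO. Of 6, 4 reached 1 CPM in both groups, and STMN2 and ELAVL4 were at 0 in olaparib. SYP made up most of the DMSO sum (27.1 ± 6.98 CPM, against 1.85 ± 0.181 in olaparib). Of the 4 tested, 3 were lower, while SNAP25 was higher (4.35 ± 1.155 against 2.84 ± 0.517 CPM, edgeR adjusted p = 0.0491). The part of glial or neuronal markers in these differences was not tested.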

How the data were processed

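RNA from cells labelled RKO was sequenced in 6 libraries, 3 per group, and groups and replicate numbers came from the sample titles. Raw counts by gene symbol came in a single table that the authors deposited. Per the submitters' processing notes, fastp, STAR and hg38 were used. Counting program, strand and annotation are not stated. A count of 1 was rarer (557 to 742 genes per library) than a count of 2 (1490 to 1696), so halved counts were an alternative; intervals and floors cover counting error only. No 2 replicates were alike within sampling noise (chi-square per degree of freedom 4.74 to 68.6). All genes were tested with edgeR 4.0.16 (default filter, TMM, robust quasi-likelihood fit, treatment only) in R 4.3.3, with Benjamini-Hochberg adjustment over all 17078 tested genes and a threshold of 0.05; SEs came from the F statistic. The test was checked on simulated data in which few genes were changed, equally up and down. Since 75.7% of tested genes were called here, that check cannot speak for scaling or false calls in these data. Alternatives were DESeq2 1.42.0, limma-voom (limma 3.58.1), other scalings and filters, counts divided by 2, a replicate block and the loss of each library. Exons came from GENCODE 29 (93.7% of rows matched by symbol), neighbours and promoters from RefSeq (97.7% of tested genes matched). Named genes were every member, the tested genes of 2 lists (other SOX genes, noncoding transcripts), up to 4 genes with the smallest adjusted p of each other list and the nearest tested neighbours. TCF7L2, NANOG, FGF4, COL9A3, COL11A2, COL27A1 and MATN3 fall outside that rule and were named after their values were seen. Also outside it are the 5 endothelial markers named individually, PINX1, POLR2F, and the untested SOX genes and noncoding transcripts at SOX loci. Some items that the rule names are not reported here. The members and lists were chosen with earlier results of these data known. Fibroblast and blood marker sums were 102 to 135 and 2.83 to 3.50 CPM in olaparib and 89.6 to 97.4 and 4.69 to 5.84 CPM in DMSO.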

Additional observations from a re-analysis of the deposited data

How the results depend on the processing

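All 9 tested members kept their direction and call under each of the 14 alternatives that gave them a value, as did 63 of the 70 named genes. With the stricter filter (1 CPM in 3 libraries) and with counts divided by 2, SOX5 was not tested and 6 members were lower. The number of all genes called ran from 11762 to 14226. With library size alone the SOX4 log2 fold change was 0.06. For MRS2, which was not called, the sign turned with library size alone (-0.06), with no filter beyond 1 count (-0.004) and on leaving out 1 library (-0.038 to 0.057); the cause was not tested. CASC15 was not called with DESeq2, limma-voom, library size alone or no filter (adjusted p = 0.0777, 0.0544, 0.0566 and 0.0527), nor SOX18 with limma-voom (adjusted p = 0.0591), nor LMF1 with library size alone or the replicate block (adjusted p = 0.0555 and 0.053). ATP11B was called with RLE size factors, the stricter filter or counts divided by 2 (adjusted p = 0.038, 0.0386 and 0.0422). With the stricter filter 2 other SOX genes and 3 cartilage genes were lower (4 and 5 in the main result), because fewer genes were tested. Noncoding transcripts called lower went from 2 to 4 with no filter or DESeq2 and to 1 with the stricter filter or counts divided by 2, and crypt genes called higher from 1 to 2 with no filter, the replicate block, or without DMSO replicate 2 or olaparib replicate 1. Same-numbered libraries correlated at -0.165, -0.128 and 0.001 in their deviations from the group means. These values do not show a pairing by number, but 3 libraries per group are too few to exclude it. With the replicate block 7 members stayed lower and SOX13 higher (log2 0.67).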
